A study of Homo sapiens with 20 samples.

Results

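A run of neighbouring genes on the long arm of human chromosome 13 was followed through mRNA sequencing of the established breast cancer line SUM159PT, which is triple-negative (without oestrogen and progesterone receptors or amplified HER2). The 58 genes are listed protein-coding genes of 13q12 to q14, between 20 and 50 Mb of hg38. The interval was selected on its low levels in the pool labelled KOs, so every value of a pool against wt describes that choice and carries no test. The files hold 27864 genes, of which 16323 passed the low-count filter. Of the 58 members 57 passed it, and WASF3, an actin regulator of the WAVE family, did not, with at most 0.0611 CPM (the count scaled by library size) in any library.

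The cells were wild-type (wt) or belonged to pools edited with Cas9 at NNMT, the cytosolic enzyme that methylates nicotinamide. A single guide (1 sgRNA) aimed at the start of transcription made the pool labelled KOs, and 2 sgRNAs that remove exon 1 made KOd. Both pools are oligoclonal, so each mixes several clones of 1 line. Cells were grown attached in serum-containing Ham's F12 (2D) or in suspension as secondary tumorspheres in serum-free DMEM/F12 with B27, EGF and bFGF (3D), with n = 3 libraries in each of the 6 groups. In a seventh group, n = 2, attached wt cells were moved from 2D into the tumorsphere medium.

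Genes of this part of chromosome 13 share no single function. RB1, the retinoblastoma protein, restrains E2F transcription factors and with them entry into S phase. BRCA2 acts in the repair of DNA breaks by homologous recombination, and FOXO1 is a transcription factor that insulin and growth factor signals keep out of the nucleus. Several other members belong to housekeeping machinery. They include parts of the Mediator (CDK8, MED4), RNA polymerases and their factors (POLR1D, GTF3A, GTF2F2) and the RNA exosome (EXOSC8). Others act in the Golgi tethering complex COG (COG3, COG6) and in the proteasome's assembly (POMP). Copy number of the arm is often altered in tumours as general background; DNA was not analysed here.

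Read totals lay between 37316513 and 43744817 in the libraries labelled KOs and between 26396964 and 32016875 in the other 14. The share of ribosomal RNA was 0.926% to 2.7% in the former and 2.82% to 8.46% in the latter. NNMT stood at 102 to 128 CPM in wt 2D, 79.5 to 130 in wt 3D and 4.39 to 5.64 in the KOd libraries. It stood at 76 to 130 CPM in the libraries labelled KOs, so that label was not borne out by NNMT's own RNA level. The guide of that pool lies at the start of transcription, and RNA alone does not settle whether the label is right. Replicate A of labelled KOs 2D and replicates C of wt 3D and KOd 3D stood apart from the rest of their groups. The mesenchymal marker VIM lay between 2540 and 5970 CPM, and of 7 markers listed as low in such a line 4 were near 0 (ESR1 at most 0.315, PGR at most 0.139, EPCAM at most 0.426 and CDH1 at most 0.16 CPM). The others were present: FOXA1 at 0.941 to 3.05, GATA3 at 1.3 to 14.4 and ERBB2, the gene of HER2, at 54.2 to 99 CPM. Of the leukocyte markers CD3E was at most at 0.0611 CPM, while the list's summed level, mostly CD68, was 24.2 to 31.9 CPM in wt 2D, 98.2 to 110 in wt in tumorsphere medium and 18 to 20.5 in wt 3D. It was 63 to 105 in labelled KOs 2D, 188 to 200 in labelled KOs 3D, 42 to 50.2 in KOd 2D and 32.1 to 35.3 in KOd 3D. The endothelial marker CDH5 stayed at or below 0.105 CPM, although PECAM1 reached 97.1. The part of these levels in the results was not tested.

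Promoter sequences were available for 53 of the 58 members in RefSeq (GRCh38.p14), as windows from 250 bases before to 50 bases after the gene's start. The 3 shown were picked by the mean of the 2D and 3D log2 fold changes in labelled KOs against wt. They are those of the lowest member (DNAJC15), of the member nearest the members' median (CENPJ) and of the highest member with an entry (SKA3). This lets the promoters of unlike responses be compared. By culture CENPJ was not near the median: it stood at −2.09 in 2D and −0.71 in 3D, beside members' medians of −1.32 and −1.45. Each reads 5′ to 3′ on the gene's own strand, with every CpG dinucleotide in capitals. DNAJC15 lies on the plus strand at chr13:43023336-43023635, CENPJ on the minus strand at chr13:24922812-24923111, inside its annotated gene span, and SKA3 on the minus strand at chr13:21176503-21176802.
DNAJC15: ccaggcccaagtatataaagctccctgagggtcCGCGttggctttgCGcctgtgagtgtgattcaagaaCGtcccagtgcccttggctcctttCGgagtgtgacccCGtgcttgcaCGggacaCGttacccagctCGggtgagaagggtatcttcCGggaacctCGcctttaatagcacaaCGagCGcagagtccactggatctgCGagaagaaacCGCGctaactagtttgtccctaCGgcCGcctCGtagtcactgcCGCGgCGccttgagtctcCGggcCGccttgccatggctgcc
CENPJ: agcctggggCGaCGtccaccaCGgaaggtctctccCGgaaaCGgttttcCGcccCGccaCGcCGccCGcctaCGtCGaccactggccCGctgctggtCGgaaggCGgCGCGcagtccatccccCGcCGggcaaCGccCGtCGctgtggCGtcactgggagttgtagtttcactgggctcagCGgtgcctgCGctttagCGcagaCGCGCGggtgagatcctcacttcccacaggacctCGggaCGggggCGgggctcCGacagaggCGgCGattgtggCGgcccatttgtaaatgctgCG
SKA3: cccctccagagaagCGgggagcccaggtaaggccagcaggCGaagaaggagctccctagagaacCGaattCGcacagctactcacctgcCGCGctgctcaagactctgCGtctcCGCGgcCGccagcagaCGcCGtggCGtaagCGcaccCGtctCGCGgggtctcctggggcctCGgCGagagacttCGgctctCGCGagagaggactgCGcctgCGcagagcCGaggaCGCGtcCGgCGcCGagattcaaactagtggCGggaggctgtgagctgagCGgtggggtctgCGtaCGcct

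The 3 windows held 24, 37 and 34 CpG dinucleotides. The members' median was 27 CpG per window and 67% GC, against 25 and 64.3% over the tested genes with an entry and 14 and 58.3% over all 27303 promoters. The GC box GGGCGG, searched on both strands as were the other motifs, stood in 66.0% of the members' windows, 66.1% of those of tested genes and 44.6% of all. The letters TGCGCA, part of the NRF1 motif, was found in 17.0%, against 12.9% of tested and 8.42% of all. The ETS site CCGGAAG was found in 20.8%, against 17.5% and 10.7%, and TATAAA in 9.43%, against 6.68% and 12.0%. CCAAT stood in 30.2%, against 36.7% of tested and 35.7% of all, and the CRE TGACGTCA in 1.89%, against 3.14% and 1.98%. By these letters the members' promoters were much like those of other tested genes.

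Together the members took 0.653% to 0.67% of all counts in wt 2D and 0.789% to 0.838% in wt 3D. Their share was 0.272% to 0.297% in the libraries labelled KOs, 0.539% to 0.562% in KOd 2D and 0.438% to 0.487% in KOd 3D. Within each culture the 3 genotypes did not overlap. Per kilobase of gene length, wt 2D levels ran from TPT1 (372 CPM per kb), ESD (240), POMP (145), GTF3A (137) and HMGB1 (107) down to TNFRSF19 (0.751) and LPAR6 (0.722).

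Against wt, 54 of the 57 tested members were lower in labelled KOs 2D and 1 was higher at an adjusted p under 0.05, where 25.5% and 27.7% of all genes were. In 3D 51 were lower and 1 higher, beside a background of 28.5% and 27.8%. The members' median log2 fold change was −1.32 in 2D and −1.45 in 3D. In KOd 30 were lower and 6 higher in 2D (22.5% and 22.1% of all genes) with a median of −0.33, and 47 lower and 9 higher in 3D (17.5% and 16.5%) with a median of −1.01. These are the values by which the interval stands out, and comparisons within 1 culture share their wt libraries. Counted by libraries that did not overlap, 53 and 51 members lay wholly below wt in labelled KOs (26.3% and 33.8% of all genes) and 36 and 46 in KOd (31.3% and 22.5%). A lower level in a pool may mean fewer cells with the transcript or less of it per cell, which bulk RNA cannot tell apart.

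**Figure D1:**
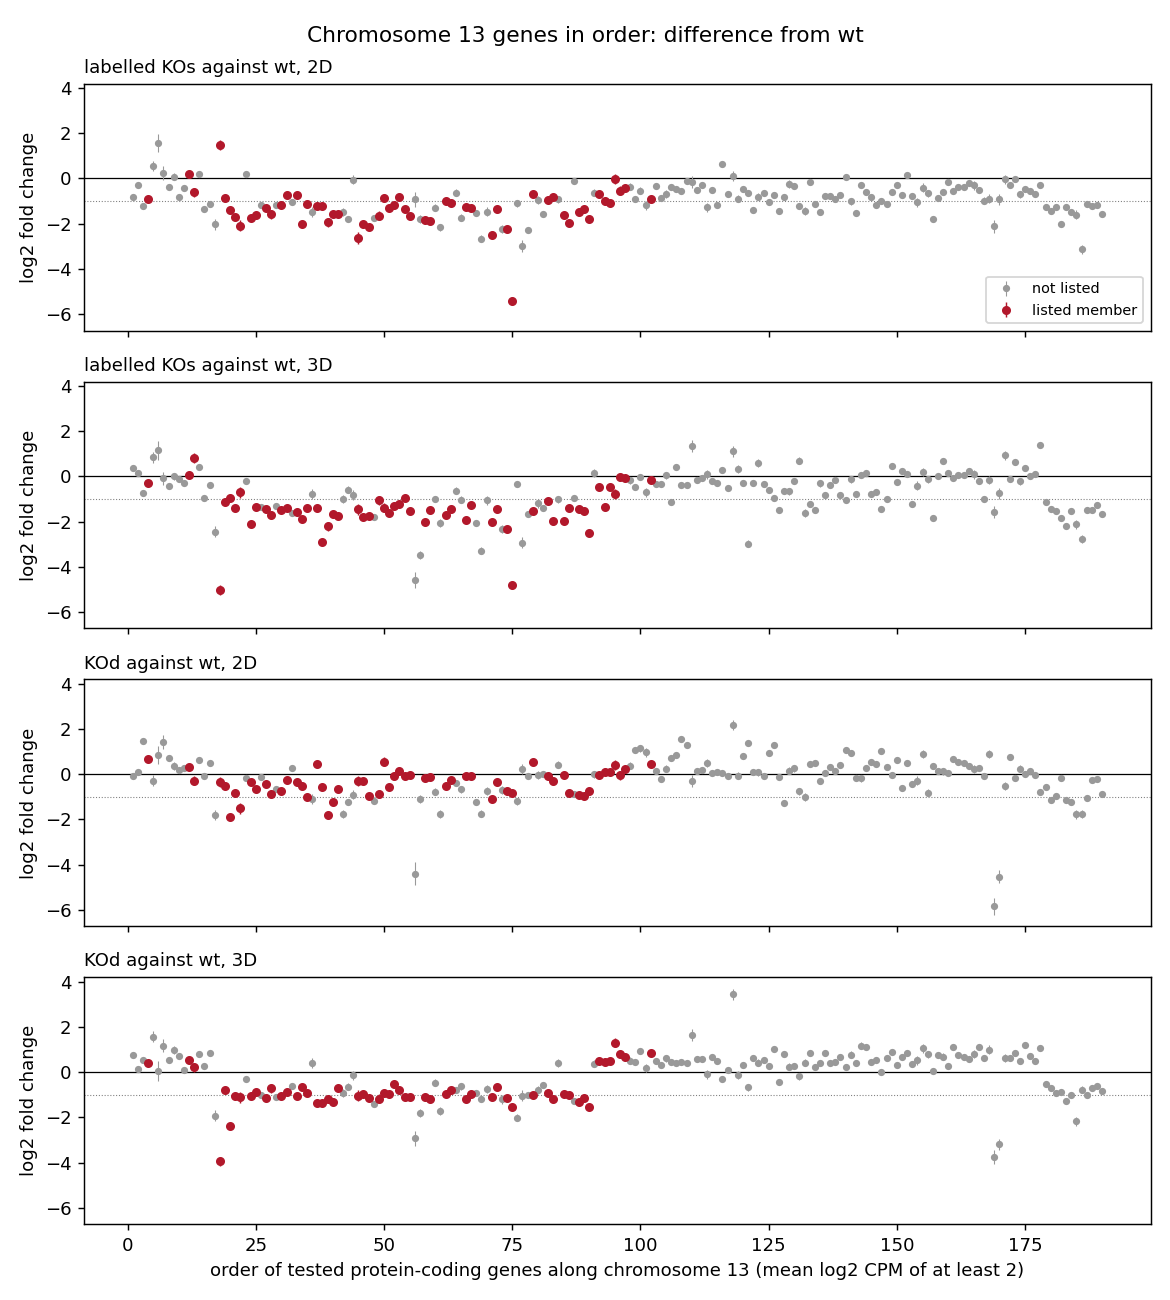
Log2 fold change (y axis, ± SE of the model) of tested protein-coding genes of chromosome 13 whose mean log2 CPM reached 2, in their order along the chromosome (x axis), for each pool against wt in each culture; listed members are red and other genes grey. In KOd 3D the run from TNFRSF19 to SUCLA2 lies near −1 (dotted line) and the members after it lie above 0.

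Read along the chromosome, the members fell into 3 runs, whose borders were drawn after the values were seen and which are therefore described only. The long run in the middle starts with TNFRSF19 at 23.57 Mb and ends with SUCLA2 at 48 Mb, with 48 listed and 47 tested members. Its median log2 fold change was −1.40 and −1.52 in labelled KOs 2D and 3D, and −0.50 and −1.07 in KOd 2D and 3D. Every tested member of it was lower in KOd 3D, by 2.09-fold at the median, and in labelled KOs 3D. The level in KOd 3D was even along the run: 44 of 47 members lay within 0.5 of the median on the log2 scale, a range that held 9.44% of all genes. In labelled KOs 29 and 35 members lay within 0.5 of the run's median in 2D and 3D, where 8.56% and 7.01% of all genes did. Without the 3 libraries that stand apart the run's medians were −1.38, −1.56, −0.50 and −1.11 in the same order.

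Single libraries gave the same picture. Relative to the wt 2D mean, the run's median log2 level was −1.5581, −1.4276 and −1.3049 in labelled KOs 2D and −1.4929, −1.4527 and −1.5382 in labelled KOs 3D. It was −0.4946, −0.4874 and −0.4438 in KOd 2D and lay between −1.0776 and −1.0642 in KOd 3D. In wt it stayed between −0.0992 and 0.0658, across 2D, tumorsphere medium and 3D. So wt libraries of all 3 cultures lay together near 0, while the KOd libraries of 2D and 3D formed separate levels.

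**Figure D2:**
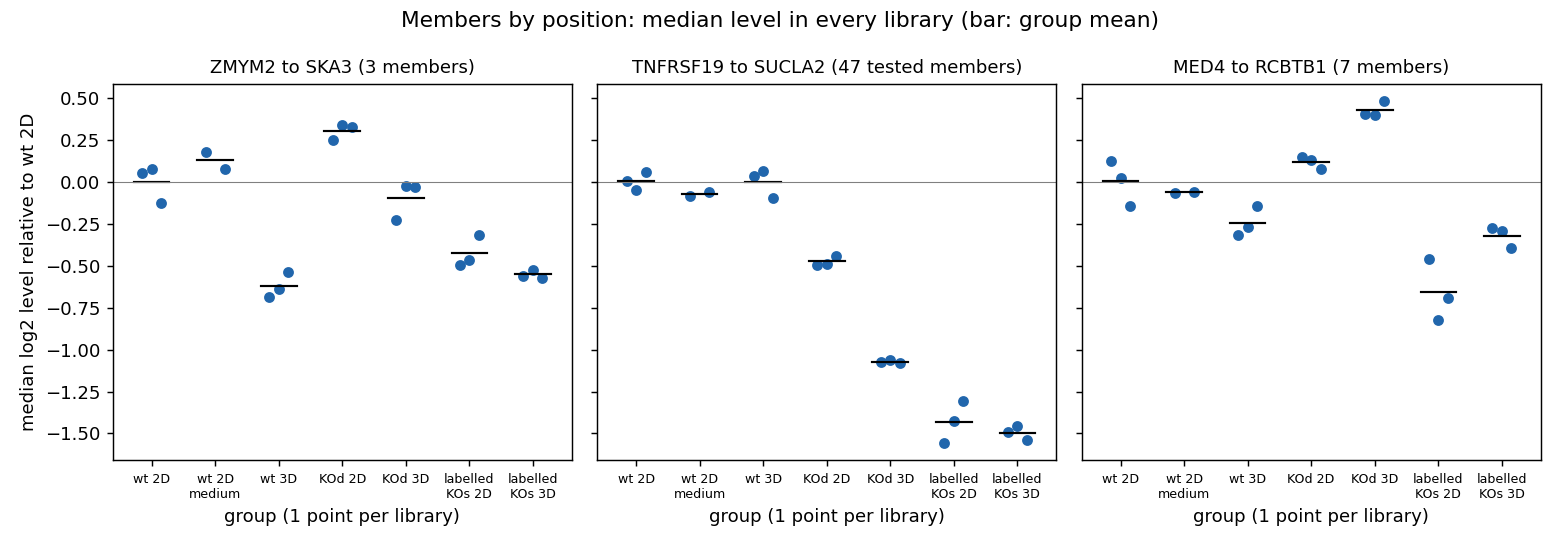
Median log2 level of the members relative to the wt 2D mean (y axis) in every library (points; bars are group means) of the 7 groups, for the members before, in and after the long run. For the run KOd libraries lie between −0.4946 and −0.4438 in 2D and between −1.0776 and −1.0642 in 3D, and for the members after it above 0 in both cultures.

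On the centromere side 3 members lie before the run. ZMYM2, a zinc finger protein of a corepressor complex, SAP18, a subunit of the Sin3 histone deacetylase complex, and SKA3, which couples kinetochores to microtubules, had medians of −0.61 and 0.07 in labelled KOs and 0.30 and 0.40 in KOd. Between them and the run MICU2, a regulator of mitochondrial calcium uptake at 21.49 Mb, stood at −1.12 and −0.38 in labelled KOs and at 0.50 and 0.82 in KOd.

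Past SUCLA2 the values stepped back up. The 7 members from MED4 (48.08 Mb) to RCBTB1 (49.59 Mb) had medians of −0.68 and −0.47 in labelled KOs, with 6 and 4 of them lower. In KOd their medians were 0.11 in 2D, with 1 higher, and 0.68 in 3D, with all 7 higher. Of all genes 25.5% and 28.5% were lower in labelled KOs 2D and 3D, and 22.1% and 16.5% higher in KOd. RB1 and its neighbours therefore lay below wt in labelled KOs and above wt in KOd 3D.

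At the outer borders of the interval ZMYM5, at 19.82 Mb and just outside, stood at −1.20 and −0.74 in labelled KOs and at 1.45 and 0.52 in KOd. GJA3, a gap junction protein at 20.14 Mb and just inside but not listed, stood at 0.55 and 0.83, and at −0.30 and 1.56. The listed ZMYM2 starts at 19.86 Mb, slightly before the stated border. At the other end TRIM13, inside and not listed, stood at −0.40 and −1.11 in labelled KOs and 0.74 and 0.46 in KOd, and KCNRG, just outside at 50.02 Mb, at −0.71 and −1.15, and 0.46 and 0.36.

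Genes of the interval that the list leaves out also lay mostly below wt. Of 121 tested protein-coding genes that start in the interval 65 were not listed, and their medians were −0.94 and −0.96 in labelled KOs and −0.23 and −0.47 in KOd. Inside the long run 26 unlisted genes whose mean log2 CPM reached 2 had medians of −1.48 and −1.25 in labelled KOs and −0.76 and −0.93 in KOd. Of those 26, 23 and 24 were lower in labelled KOs (25.5% and 28.5% of all genes) and 18 and 23 in KOd (22.5% and 17.5%). The 103 protein-coding genes past 50 Mb had medians of −0.73 and −0.32 in labelled KOs, and of 0.12 and 0.49 in KOd. In KOd 3D 59 of them were higher and 21 lower, beside 16.5% and 17.5% of all genes. Of those 103, the last 15, from F10 (113.12 Mb) on, were low again, with medians of −1.42 and −1.55 in labelled KOs and −1.04 and −0.87 in KOd. The 88 before F10, a border chosen after the values were seen, had medians of −0.66 and −0.21 in labelled KOs and 0.24 and 0.59 in KOd. Genes of all other chromosomes together had medians between 0.003 and 0.07 in the 4 comparisons, but single chromosomes were shifted too. In labelled KOs the median was −0.52 in 2D and −0.20 in 3D for chromosome 11, and 0.35 and 0.34 for chromosome 17. For chromosome 4 it was −0.17 and −0.23. Chromosome 13 as a whole, at −0.91 and −0.83, had the lowest median of the 23 there. In KOd that was chromosome 2 (−0.25 and −0.26), with chromosome 13 at −0.07 and −0.05.

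**Figure D3:**
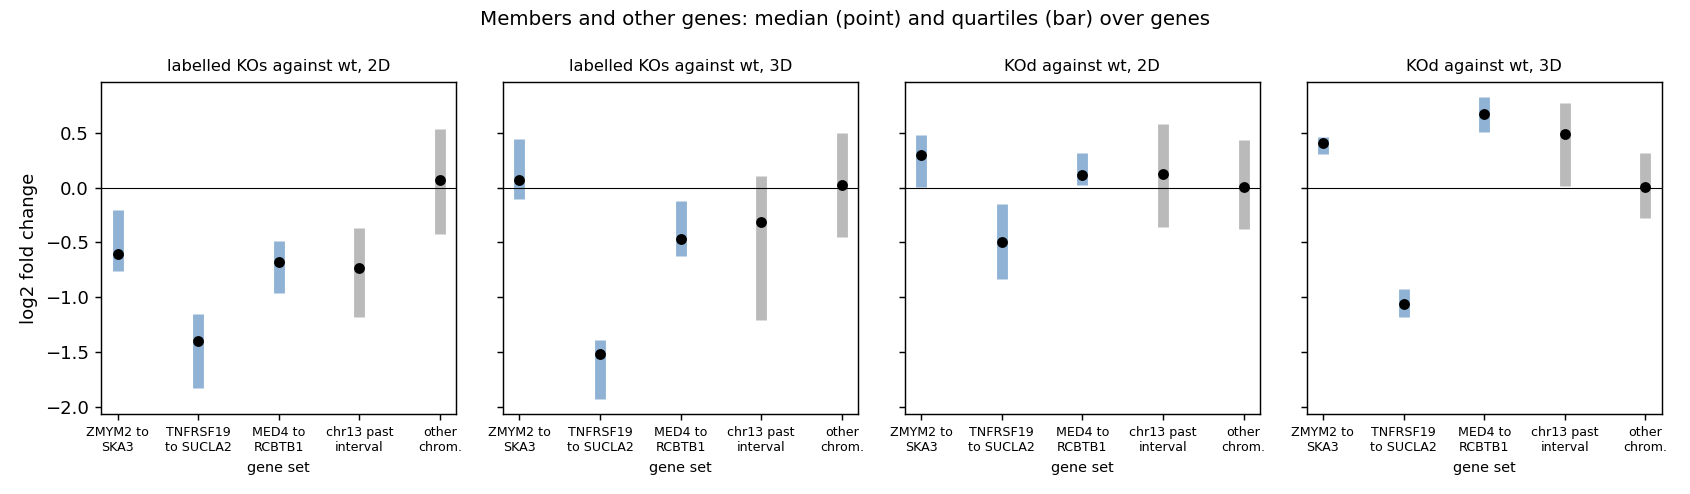
Median (point) and quartiles (bar) of the log2 fold change over genes (y axis) for the members before, in and after the long run (blue), and for chromosome 13 protein-coding genes past the interval and all genes of other chromosomes (grey), in each pool and culture against wt. The long run lies lowest in all 4 panels.

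By role, the mitochondrial members ranged from DNAJC15, the lowest member in labelled KOs 2D, to MIPEP and MTIF3, which lay above the run's median there. DNAJC15, a co-chaperone of the mitochondrial import motor, stood at 85.9, 86 and 94.6 CPM in wt 2D, at 1.41, 1.85 and 3.07 in labelled KOs 2D and at 46.3, 51.6 and 50.2 in KOd 2D. In 3D it stood at 84.3, 86.1 and 89.7 in wt, at 3.31, 2.83 and 3.03 in labelled KOs and at 28.5, 31 and 29.8 in KOd. Its log2 fold changes were −5.41 ± 0.17 and −4.82 ± 0.17 in labelled KOs and −0.85 ± 0.14 and −1.54 ± 0.14 in KOd (SE, n = 3 against 3). No library of 1 genotype overlapped another within a culture, and its promoter, shown above, held a TATAAA motif, which 9.43% of members' windows did.

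SUCLA2, the ATP-forming subunit of succinyl-CoA ligase in the citric acid cycle, closes the run. It stood at 87.3, 84.5 and 88.7 CPM in wt 2D, 24.1, 25.6 and 25.4 in labelled KOs 2D and 53, 51.6 and 52.6 in KOd 2D. Levels in 3D were 113, 123 and 109 in wt, 19.2, 21.5 and 20.1 in labelled KOs and 37.6, 41.5 and 39.4 in KOd. The differences from wt were −1.79 ± 0.07 and −2.51 ± 0.07 in labelled KOs and −0.73 ± 0.07 and −1.55 ± 0.07 in KOd on the log2 scale. The genotypes again did not overlap. MIPEP, a peptidase that trims imported mitochondrial proteins, and MTIF3, a mitochondrial translation initiation factor, lay at −0.85 and −0.75 in labelled KOs 2D and at −0.78 and −0.89 in KOd 3D. VWA8, a mitochondrial AAA+ protein, stood at 60.7, 57.9 and 65.9 CPM in wt 2D, 29.1, 22 and 20.9 in labelled KOs 2D and 50.7, 46 and 46.7 in KOd 2D. In tumorspheres it stood at 60.9, 63.7 and 53.1 in wt, 20.4, 23.6 and 21.1 in labelled KOs and 39.1, 37.6 and 35.3 in KOd. Its order of wt, KOd, labelled KOs held in both cultures.

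Among regulators of transcription, RB1 lies past the run. It stood at 83.8, 79.3 and 73.8 CPM in wt 2D, 39.9, 33.7 and 36.4 in labelled KOs 2D and 91.8, 78.4 and 83.1 in KOd 2D. Its 3D levels were 38.9, 43.3 and 38.2 in wt, 30.2, 28.5 and 27.6 in labelled KOs and 55.7, 56.7 and 59.4 in KOd. The log2 differences were −1.11 ± 0.08 and −0.48 ± 0.08 in labelled KOs, and 0.10 ± 0.08 and 0.51 ± 0.08 in KOd. KOd 2D overlapped wt 2D, and every KOd 3D library lay above wt 3D.

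FOXO1 stood at 84.4, 84.1 and 85.3 CPM in wt 2D, 47.5, 34.9 and 35.4 in labelled KOs 2D and 77.6, 70.8 and 63.6 in KOd 2D. In 3D it stood at 22, 22.3 and 24.8 in wt, 8.75, 8.06 and 8.48 in labelled KOs and 13, 14.2 and 12.4 in KOd. Its pools lay below wt without overlap in both cultures, by −1.11 ± 0.10 and −1.45 ± 0.11 in labelled KOs and −0.26 ± 0.10 and −0.80 ± 0.11 in KOd. CDK8, the kinase of the Mediator's regulatory module, stood at 40.6, 38.9 and 44.4 CPM in wt 2D, 13.7, 16.7 and 19.5 in labelled KOs 2D and 28.3, 31.6 and 32.5 in KOd 2D. Levels in 3D were 25.3, 26.1 and 17.9 CPM in wt, 8.65, 9.36 and 7.71 in labelled KOs and 9.75, 11.8 and 10.1 in KOd, and it lay −1.13 ± 0.14 below wt in KOd 3D. Its groups did not overlap either, although wt 3D replicate C was the lowest of its group for CDK8.

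HMGB1, an abundant DNA-bending chromatin protein, stood at 576, 541 and 604 CPM in wt 2D, 147, 196 and 234 in labelled KOs 2D and 263, 238 and 233 in KOd 2D. In tumorspheres it stood at 340, 362 and 287 in wt, 102, 110 and 104 in labelled KOs and 120, 135 and 140 in KOd. The log2 differences were −1.58 ± 0.13 and −1.65 ± 0.13 in labelled KOs and −1.23 ± 0.13 and −1.33 ± 0.13 in KOd. HMGB1 was thus lower in both pools and both cultures with no overlap with wt. Of the general factors, SUPT20H, a subunit of the SAGA coactivator, GTF2F2, a subunit of TFIIF, and ELF1, an ETS transcription factor, lay at −0.03, −0.07 and −0.09 in KOd 2D and at −1.11, −0.92 and −1.20 in KOd 3D. SAP18 was the highest member in labelled KOs by the mean log2 fold change of both cultures, though the highest in neither culture alone. It stood at 85.8, 80.3 and 72.3 CPM in wt 2D, 70, 94 and 110 in labelled KOs 2D and 94, 100 and 99.3 in KOd 2D. Its 3D levels were 49.3, 50.9 and 54.5 in wt, 53.8, 55.1 and 53.3 in labelled KOs and 67.6, 77.9 and 77.5 in KOd. Its labelled KOs libraries overlapped wt in both cultures, and its KOd libraries lay above wt in both.

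Of the genome maintenance and division genes, BRCA2 stood at 56, 51.2 and 53.9 CPM in wt 2D, 8.81, 9.83 and 7.1 in labelled KOs 2D and 47.7, 38.2 and 44.9 in KOd 2D. In 3D it stood at 36.7, 40.4 and 15 in wt, 11.3, 11 and 11.4 in labelled KOs and 17.6, 15.4 and 11.7 in KOd. The log2 differences were −2.64 ± 0.26 and −1.45 ± 0.25 in labelled KOs and −0.30 ± 0.24 and −1.04 ± 0.24 in KOd. Because wt 3D replicate C stood at 15 CPM, KOd 3D overlapped wt 3D for BRCA2. CENPJ, which builds centrioles, stood at 31.5, 28.5 and 30.6 CPM in wt 2D, 7.09, 8.48 and 5.59 in labelled KOs 2D and 12.6, 8.97 and 10.4 in KOd 2D. Levels in 3D were 34.3, 32.8 and 13.8 in wt, 15.7, 17.7 and 16.2 in labelled KOs and 12.3, 13.3 and 11.6 in KOd. Here too wt 3D replicate C was the lowest of its group, and labelled KOs 3D overlapped it.

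SKA3 stood at 44.3, 45.1 and 39.2 CPM in wt 2D, 19, 30.9 and 34.4 in labelled KOs 2D and 37.5, 36.6 and 31.7 in KOd 2D. In tumorspheres it stood at 8.95, 9 and 4.81 in wt, 14.2, 13.2 and 12.6 in labelled KOs and 7.92, 8.56 and 9.81 in KOd. Labelled KOs lay below wt in 2D by −0.61 ± 0.20, a value of −0.39 with the call lost without their replicate A, and above wt in 3D by 0.81 ± 0.21. In KOd 3D the difference of 0.20 ± 0.21 turned to −0.12 without the 3 libraries that stand apart. PDS5B, a regulator of cohesin, and RFC3, a subunit of the clamp loader, lay at −0.96 and −0.87 in KOd 2D and at −1.14 and −1.17 in KOd 3D.

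In protein making and breakdown, TPT1, the translationally controlled tumour protein, was the most abundant member per kilobase. It stood at 1730, 1750 and 1890 CPM in wt 2D, 1200, 910 and 909 in labelled KOs 2D and 1330, 1520 and 1520 in KOd 2D. Its 3D levels were 2610, 2710 and 4180 in wt, 802, 800 and 795 in labelled KOs and 1210, 1480 and 1500 in KOd. The log2 differences were −0.83 ± 0.15 and −1.99 ± 0.16 in labelled KOs and −0.30 ± 0.15 and −1.18 ± 0.15 in KOd. Every pool library lay below every wt library of its culture, and TPT1 shares its locus with the small nucleolar RNA gene SNORA31.

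POMP, which helps assemble the proteasome's core, stood at 216, 206 and 212 CPM in wt 2D, 77.1, 93.6 and 117 in labelled KOs 2D and 98.6, 104 and 114 in KOd 2D. In 3D it stood at 144, 148 and 134 in wt, 55, 54.5 and 53.2 in labelled KOs and 69.7, 79.3 and 77.7 in KOd. It was lower in KOd by nearly the same amount in both cultures, −1.001 ± 0.11 and −0.911 ± 0.11. UFM1, a ubiquitin-like modifier, stood at 73.1, 70 and 66.6 CPM in wt 2D, 16.4, 19.8 and 21.7 in labelled KOs 2D and 59.4, 60.3 and 65.9 in KOd 2D. Levels in 3D were 87.8, 97.4 and 88.4 in wt, 22.7, 22.8 and 21.3 in labelled KOs and 39.8, 42.4 and 46.1 in KOd. UFM1 lay just below wt in KOd 2D (−0.18 ± 0.09) and well below it in KOd 3D (−1.09 ± 0.09). NAA16, an auxiliary subunit of the NatA acetyltransferase, stood at 22.3, 23.1 and 25 CPM in wt 2D, 3.68, 4.11 and 4.74 in labelled KOs 2D and 11.3, 9.49 and 11.9 in KOd 2D. In tumorspheres it stood at 23.1, 23.5 and 15.9 in wt, 5.02, 5.18 and 5.14 in labelled KOs and 9.69, 10.5 and 8.93 in KOd. The groups did not overlap for NAA16, whose KOd differences were −1.11 ± 0.14 and −1.10 ± 0.14.

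**Figure D4:**
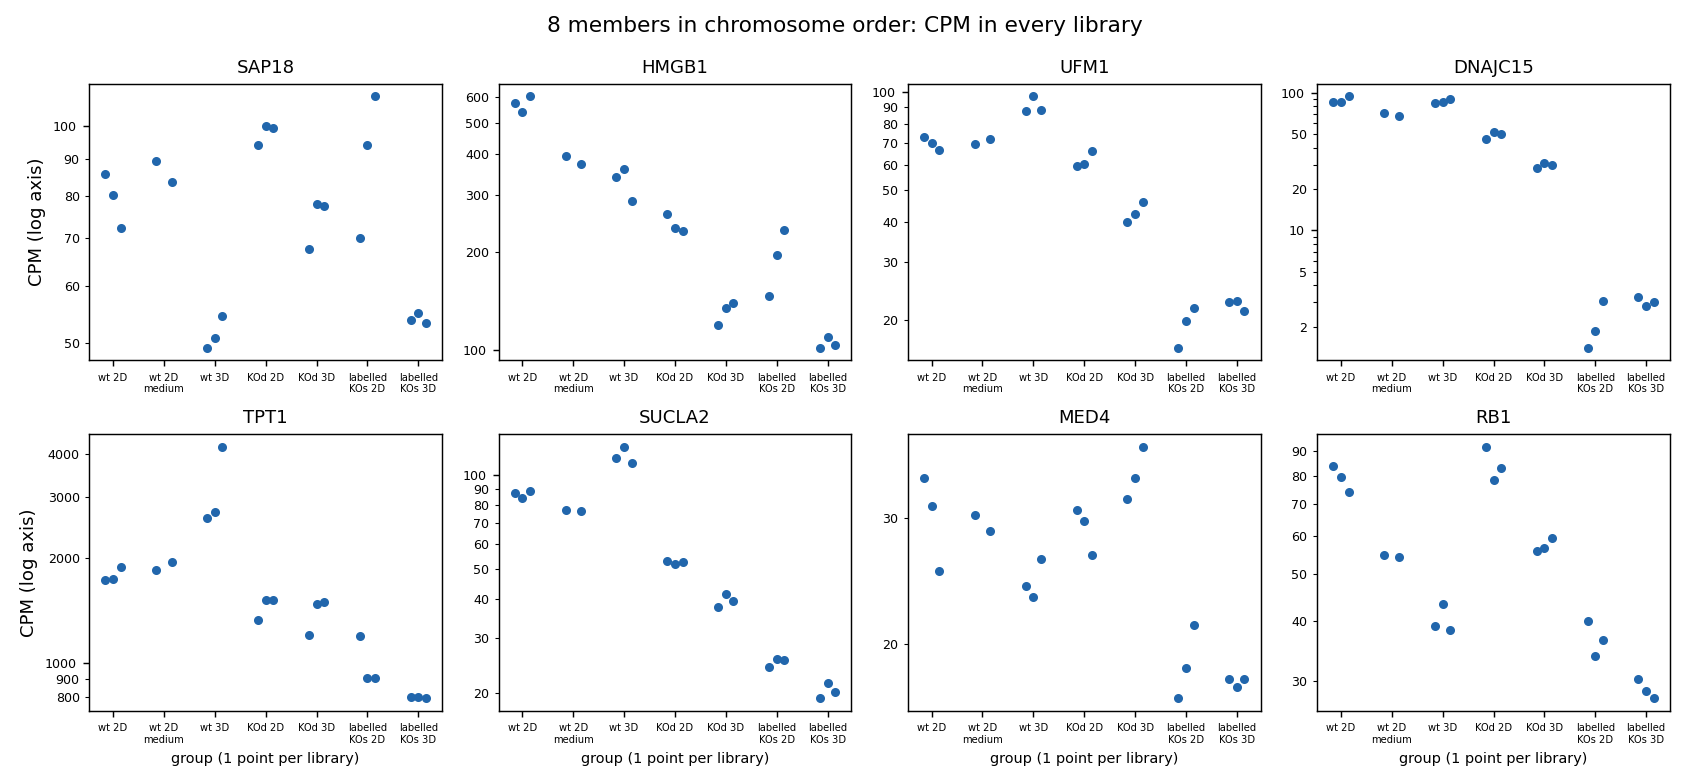
CPM of 8 members (log y axis, 1 point per library) in the 7 groups, from SAP18 before the long run through HMGB1, UFM1, DNAJC15, TPT1 and SUCLA2 in it to MED4 and RB1 after it. In the 5 members of the run the libraries labelled KOs and KOd 3D lie below wt of the same culture, and in MED4 and RB1 the KOd 3D libraries lie above wt 3D.

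Of the membrane and signalling members, AKAP11, an anchor of protein kinase A, stood at 192, 172 and 207 CPM in wt 2D, 43.4, 40.3 and 38.3 in labelled KOs 2D and 121, 108 and 112 in KOd 2D. Its 3D levels were 271, 281 and 232 in wt, 51.7, 55.1 and 50.3 in labelled KOs and 131, 120 and 108 in KOd. No groups overlapped within a culture.

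ITM2B, a membrane protein past the run, stood at 67.5, 70.9 and 61.1 CPM in wt 2D, 48.2, 26.1 and 24.9 in labelled KOs 2D and 73.2, 73.4 and 69.1 in KOd 2D. In 3D it stood at 127, 140 and 151 in wt, 55.6, 55.8 and 53.4 in labelled KOs and 179, 196 and 200 in KOd. Labelled KOs lay below wt without overlap, and in 3D KOd lay above it. FNDC3A stood at 109, 105 and 92.4 CPM in wt 2D, 99.2, 64.9 and 63 in labelled KOs 2D and 113, 111 and 136 in KOd 2D. Levels in 3D were 80.9, 84.6 and 92.1 in wt, 84.2, 83.1 and 77.5 in labelled KOs and 135, 134 and 143 in KOd. Its labelled KOs difference in 3D, −0.07 ± 0.13, changed sign to 0.09 when libraries were scaled by their totals alone.

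TNFRSF19, a receptor of the TNF family and the first gene of the run, behaved unlike its neighbours. It stood at 4.1, 4.1 and 2.71 CPM in wt 2D, 0.882 and 1.34 in tumorsphere medium, 12.5, 8.35 and 9.54 in labelled KOs 2D and 3.6, 3.35 and 1.73 in KOd 2D. In wt 3D it stood at 180, 198 and 214, against 5.51, 6.38 and 6.37 in labelled KOs 3D and 12.7, 13.6 and 12.4 in KOd 3D. It was the 1 member higher in labelled KOs 2D (1.48 ± 0.21), and in 3D both pools lay far below wt, by −5.02 ± 0.21 and −3.93 ± 0.20.

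The KOd pool was compared with the pool labelled KOs within each culture. In 2D 50 of 57 members were higher in KOd and 2 lower (28.8% and 30.7% of all genes), with a median of 0.94, and in 3D 46 were higher and 2 lower (23.9% and 23.3%), with a median of 0.65. The KOd libraries lay wholly above those labelled KOs for 49 members in 2D (29.6% of all genes) and for 50 in 3D (32.4%). The largest gap was that of DNAJC15, 4.56 ± 0.17 in 2D and 3.28 ± 0.16 in 3D. SPATA13, a guanine nucleotide exchange factor, was lower in KOd than in labelled KOs, by −0.50 ± 0.12 and −1.39 ± 0.12. These values also rest on the choice of the interval and are a description.

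Culture was not used to choose the members, so its contrasts were tested across all 16323 genes. In wt 3D against 2D 20 members fell and 19 rose by edgeR's quasi-likelihood test with Benjamini-Hochberg adjustment, where 30.4% of all genes fell and 33.3% rose. The members' median was −0.00, beside 0.04 over all genes, so the share of members that moved was near the background. TNFRSF19 rose most (5.76 ± 0.23, adjusted p = 1.1e-12), followed by LPAR6, a receptor for lysophosphatidic acid (1.91 ± 0.22, 9.1e-07), and TSC22D1, a TGF-beta-stimulated regulator (1.87 ± 0.08, 6.1e-12). UBL3, NBEA, ITM2B, TPT1 and COG3 rose by 0.76 to 1.18 on the log2 scale. SKA3 fell most (−2.50 ± 0.21, 2.3e-08), then FOXO1 (−1.88 ± 0.11, 1.6e-10), RFC3 (−1.35 ± 0.19, 7.9e-06), EXOSC8 (−1.03 ± 0.13, 2.1e-06) and RB1 (−0.98 ± 0.08, 1.9e-08). BRCA2 fell by 0.80 on the log2 scale (adjusted p = 0.007), a value of −0.48 without wt 3D replicate C.

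In labelled KOs 23 members fell and 17 rose in 3D against 2D, beside 32.1% and 32.9% of all genes. The median of −0.09 turned to 0.13 when libraries were scaled by their totals alone. FOXO1 fell most by edgeR's test (−2.22 ± 0.11, adjusted p = 3.9e-11), and CENPJ (1.23 ± 0.24, 0.00023), LPAR6 (1.17 ± 0.22, 0.00014) and TSC22D1 (1.05 ± 0.08, 1e-08) rose most. In KOd 30 members fell and 8 rose, beside 31.2% and 35.2% of all genes, with a median of −0.36. FOXO1 (−2.42 ± 0.11, 6.6e-12), EXOSC8 (−2.05 ± 0.13, 6e-10), SKA3 (−2.01 ± 0.21, 2.1e-07), SLC7A1, a transporter of cationic amino acids (−1.82 ± 0.11, 1.4e-10), and PROSER1 (−1.72 ± 0.10, 1.9e-10) fell most. LPAR6 (2.81 ± 0.22, 5.4e-09), TNFRSF19 (2.16 ± 0.21, 9.9e-08) and ITM2B (1.42 ± 0.17, 9.5e-07) rose most. FOXO1 and SKA3 fell in each of the 3 genotypes, and LPAR6, TSC22D1 and ITM2B rose in each.

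The medium alone moved fewer members. Attached wt cells in tumorsphere medium had 15 members lower and 6 higher than in 2D, beside 16.4% and 15.6% of all genes. By edgeR's test TNFRSF19 (−1.72 ± 0.31, adjusted p = 0.00036), KATNAL1, a katanin-like microtubule-severing ATPase (−1.60 ± 0.22, 3.1e-05), and RCBTB2 (−1.23 ± 0.24, 0.00072) fell most, and LPAR6 (0.76 ± 0.25, 0.026) and TSC22D1 (0.52 ± 0.09, 0.00027) rose most. TNFRSF19 therefore fell with the medium and rose in 3D, while FOXO1 rose with the medium (0.41 ± 0.12, 0.011) and fell in 3D. With n = 2, the calls of HMGB1, UBL3, LPAR6, FNDC3A, POLR1D and FOXO1 were lost without 1 of the medium libraries.

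The interaction of pool and culture asks whether a pool's difference from wt was another one in 3D than in 2D. For labelled KOs it is built from the differences on which the interval was chosen, and for KOd it shares their wt libraries. Its p-values are therefore not independent of that choice. For KOd the interaction passed for 32 of 57 members. Of these, 28 had a lower difference in 3D and 4 a higher one, beside 14.7% and 14.4% of all genes. The members' median was −0.39, against 0.01 over all genes. All 28 lay in the long run and all 4 past it. The run holds 47 of the 57 tested members and its borders were drawn after these values were seen, so this split is a description. At an unadjusted p under 0.05, 32 members of the run were lower, and limma-voom called 27 and DESeq2 29. Without the 3 libraries that stand apart 35 members of the run were lower and 1 higher.

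The interaction passed in every stretch of the run, for 11 of 25 members of its first stretch, 15 of 18 in the middle and 2 of 4 in the last, and the stretches were not tested against each other. The 18 members from RFXAP (36.82 Mb) to COG3 (45.54 Mb) had a median of −0.11 in KOd 2D. There 5 were lower and 1 higher, beside 22.5% and 22.1% of all genes. In KOd 3D their median was −1.06 and all 18 were lower, beside 17.5% of all genes. Their median interaction was −0.89, against −0.33 in the first stretch and −0.31 in the last, and all but RFXAP, NAA16 and VWA8 passed. The 25 tested members from TNFRSF19 to SPART had medians of −0.57 in 2D and −1.06 in 3D, and the 4 from ZC3H13 to SUCLA2 of −0.87 and −1.24. Over libraries the median level of the middle members relative to wt 2D was −0.129 ± 0.0435 in KOd 2D, −0.792 ± 0.0374 in KOd 3D and 0.055 ± 0.0391 in wt 3D (mean ± SD, n = 3). In labelled KOs the same members lay at −1.34 in 2D and −1.53 in 3D, so the step between cultures there was smaller. This split of the run was also drawn after the values were seen.

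**Figure D5:**
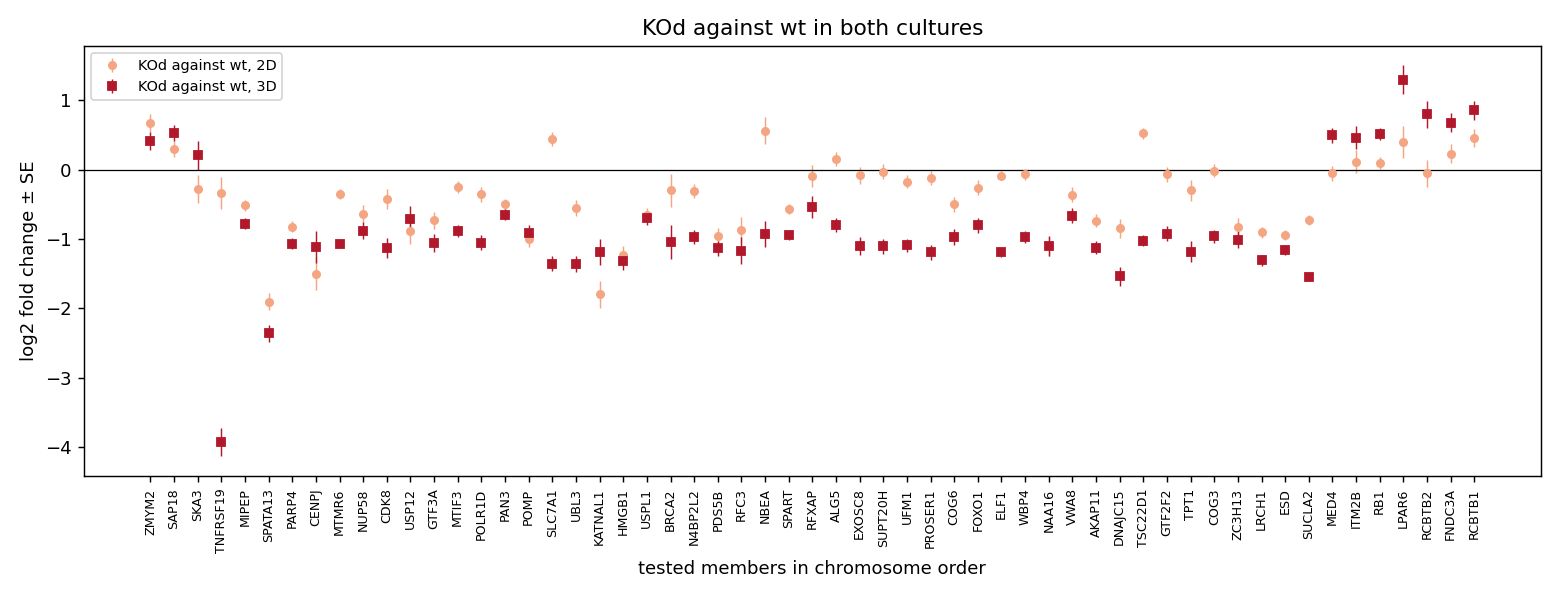
Log2 fold change ± SE (y axis) of KOd against wt in 2D (circles) and 3D (squares) for the 57 tested members in chromosome order (x axis). Between RFXAP and COG3 most circles lie near 0 and most squares near −1, and from MED4 on the squares lie above 0.

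The largest KOd interaction after TNFRSF19 (−3.60 ± 0.30, adjusted p = 1.7e-07) was that of SLC7A1 (−1.80 ± 0.15, 1.5e-07). SLC7A1 stood at 379, 375 and 386 CPM in KOd 2D, above the 282, 264 and 293 of wt 2D, and at 114, 103 and 105 in KOd 3D, below the 304, 292 and 227 of wt 3D. TSC22D1 (−1.55 ± 0.12, 6.4e-08) stood at 277, 294 and 332 CPM in KOd 2D against 205, 208 and 216 in wt 2D, and at 374, 411 and 345 in KOd 3D against 736, 749 and 818 in wt 3D. NBEA, which acts in vesicle traffic (−1.49 ± 0.27, 5e-04), stood at 19.2, 15.9 and 18.8 CPM in KOd 2D against 13.2, 13.3 and 10 in wt 2D, and at 16.2, 14.9 and 10.6 in KOd 3D against 27.1, 31.2 and 21.2 in wt 3D. All 3 lay above wt in KOd 2D and below it in KOd 3D, without overlap. Past the run the interaction was positive for LPAR6 (0.90 ± 0.31, 0.034), RCBTB2 (0.85 ± 0.27, 0.026), MED4 (0.55 ± 0.16, 0.014) and RB1 (0.42 ± 0.12, 0.012). The annotated span of LPAR6 lies inside that of RB1, so the authors' counting could have split reads between them. The calls of LPAR6 and RCBTB2 rested on single libraries: without wt 2D replicate A they stood at 0.69 and 0.74 and were lost.

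For labelled KOs 12 members had a lower difference in 3D and 10 a higher one, beside 19% and 17.9% of all genes, so the members' share was near the background. The median of −0.12 turned to 0.10 with library totals and to 0.01 without labelled KOs 2D replicate C. By edgeR's test the lower differences were largest for TNFRSF19 (−6.49 ± 0.29, adjusted p = 3.7e-10), UBL3, a ubiquitin-like membrane protein (−1.65 ± 0.17, 1.4e-06), TPT1 (−1.16 ± 0.21, 0.00048) and POLR1D (−0.86 ± 0.15, 0.00035). UBL3 stood at 133, 151 and 141 CPM in wt 3D against 61.2, 57 and 69.4 in wt 2D, and at 18.9, 18.3 and 20 in labelled KOs 3D against 23, 24.5 and 32.1 in labelled KOs 2D. It rose in wt 3D by 1.18 ± 0.12, while the change in labelled KOs was −0.47 ± 0.12. The higher differences were largest for SKA3 (1.42 ± 0.29, 0.00099), CENPJ (1.39 ± 0.33, 0.0033), BRCA2 (1.19 ± 0.35, 0.012) and RCBTB1 (0.75 ± 0.19, 0.0059). Without the 3 libraries that stand apart 20 members of the run were lower and 5 higher, and the value of TPT1 was −0.75.

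Partners of the members' protein complexes that are encoded on other chromosomes moved in both directions, as all genes did. Of 98 tested partners 34 rose and 31 fell in labelled KOs 2D (median 0.02), 40 rose and 22 fell in labelled KOs 3D (0.15), 20 rose and 25 fell in KOd 2D (−0.05), and 9 rose and 6 fell in KOd 3D (−0.04). These shares were 34.7% and 31.6% beside 27.7% and 25.5% of all genes in labelled KOs 2D, and 40.8% and 22.4% beside 27.8% and 28.5% in labelled KOs 3D. In KOd they were 20.4% and 25.5% beside 22.1% and 22.5% in 2D, and 9.18% and 6.12% beside 16.5% and 17.5% in 3D. With library totals alone the medians were −0.04, 0.32, 0.07 and 0.11, so 3 of the 4 changed sign. Leaving out the 3 libraries that stand apart gave 43 and 33, 49 and 25, 29 and 37, and 12 and 25. By edgeR's test NAA10, the catalytic subunit that NAA16 can serve, rose in labelled KOs by 1.04 ± 0.12 (adjusted p = 2.3e-06) and 1.38 ± 0.13 (5.2e-08). PSMB6, a proteasome core subunit, rose by 1.19 ± 0.11 (1.5e-07) and 1.15 ± 0.11 (1.4e-07). It lies on chromosome 17, whose median over all its genes was itself raised in labelled KOs, 0.35 in 2D and 0.34 in 3D. Whether its rise belongs to that shift was not tested. UFSP2, a protease that matures UFM1, fell by 0.93 (3.6e-08) and 1.27 (4.2e-10) on the log2 scale. It lies on chromosome 4, whose median in labelled KOs was −0.17 in 2D and −0.23 in 3D. The part of that shift in its fall was not tested either. The centriole proteins SASS6 and CEP152 fell by 1.34 each in 2D (5.9e-07 and 3.2e-05).

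Paralogues on other chromosomes, 32 tested of 35 listed, were also mixed. In labelled KOs 6 rose and 14 fell in 2D (18.8% and 43.8%), and 7 rose and 12 fell in 3D (21.9% and 37.5%). The KOd counts were 9 higher and 5 lower in 2D (28.1% and 15.6%), and 3 higher and 9 lower in 3D (9.38% and 28.1%). They stand beside the shares of all genes just given, from which no change particular to paralogues is read. Leaving those 3 libraries out gave 6 and 17, 8 and 16, 13 and 9, and 6 and 13. With library totals alone 8 rose and 6 fell in labelled KOs 3D, and 8 rose and 2 fell in KOd 3D. HMGB2, the close relative of HMGB1, fell in labelled KOs 2D by 1.95 on the log2 scale (adjusted p = 2e-09 by edgeR). It too lies on chromosome 4, whose median there was −0.17. ARHGEF4, related to SPATA13, rose in labelled KOs by 1.24 ± 0.24 (0.00028) and 2.12 ± 0.21 (1.2e-07).

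The 21 tested E2F target genes, which RB1 restrains, all fell in wt 3D against 2D, with a median of −1.67, where 30.4% of all genes fell. Against wt, 17 rose and 1 fell in labelled KOs 3D (81% and 4.76%, beside 27.8% and 28.5% of all genes, median 0.92). In labelled KOs 2D 0 rose and 3 fell (−0.01), beside 27.7% and 25.5% of all genes. There 1 rose at an unadjusted p under 0.05, 1 by DESeq2 and 0 by limma-voom. In KOd 2D 0 rose, also at an unadjusted p and by both other tools, and 12 fell (57.1%, beside 22.5% of all genes, −0.55). In KOd 3D 0 rose and 0 fell by edgeR's adjusted test (−0.04), beside 16.5% and 17.5% of all genes. There 1 and 4 passed at an unadjusted p under 0.05, limma-voom called 0 and DESeq2 called 1 lower. The count in 3D turned on the libraries that stand apart: without them 11 fell in KOd 3D, and in labelled KOs 2D 10 rose and 4 fell. The labelled KOs 3D count was 17 and 2 without them. RB1 itself lay below wt in labelled KOs of both cultures and above it in KOd 3D. In wt 3D against 2D, where all 21 targets fell, RB1 fell too (−0.98 ± 0.08, adjusted p = 1.9e-08 by edgeR). Whether the targets follow the level of RB1 was not tested. The interaction passed upward for 17 of 21 in labelled KOs (0.86) and for 9 in KOd (0.51), beside 17.9% and 14.4% of all genes.

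Of 15 tested FOXO1 target genes, 2 rose and 4 fell in labelled KOs 2D, 3 rose and 8 fell in labelled KOs 3D, 7 rose and 0 fell in KOd 2D, and 4 rose and 0 fell in KOd 3D by edgeR's test. In KOd 0 were lower at an unadjusted p under 0.05 and by DESeq2 and limma-voom too. With the same 3 libraries left out the counts were 3 and 9, 4 and 7, 10 and 0, and 5 and 0. FOXO1's own level lay below wt in every one of these comparisons, although in KOd 2D its difference (−0.26 ± 0.10) did not pass the adjusted test. As shares the main counts were 13.3% and 26.7%, 20% and 53.3%, 46.7% and 0%, and 26.7% and 0%, to be read beside the same shares of all genes as for the partners. In wt 3D against 2D 11 of the targets rose and 4 fell, while FOXO1 fell.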

How the data were processed

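The authors deposited 1 table of read counts per Entrez gene in 20 libraries (TruSeq stranded mRNA), with a column of gene length in bases. Alignment was with STAR to hg38, per the submitters' processing notes; the counting tool, its strand setting and the annotation are not given in the sources used here, so reads of overlapping genes (24 of the 58 members overlap another gene) may be split. The counts were whole numbers without normalization. Of 27864 Entrez IDs 27740 matched the RefSeq GRCh38.p14 table, which gave symbols and positions, and 124 did not. Whether replicates were separate cultures is not stated in the labels. The p-values therefore measure how far these libraries spread, which may be technical. No pair of replicates agreed within sampling noise (lowest chi-square per degree of freedom 3.47).

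In R 4.3.3, edgeR 4.0.16 was used: filterByExpr kept 16323 genes, TMM scaled the libraries, and a quasi-likelihood model gave each group its own coefficient over all 20 libraries (13 residual degrees of freedom, biological coefficient of variation 0.143). In all, 12 contrasts were tested with Benjamini-Hochberg adjustment over all genes; an adjusted p under 0.05 counted as passed. Standard errors were derived from the test's F value. CPM used TMM library sizes, and log2 CPM a prior count of 2. The fitting script was tested on simulated data. Members and lists were chosen with earlier results of these data known. Members were ranked by mean log2 fold change in labelled KOs over both cultures. Those given library by library were the 3 lowest, 3 nearest the median and 3 highest. RB1, BRCA2, FOXO1, HMGB1, TPT1, ITM2B, CDK8, POMP, SUCLA2 and UFM1 were given too. For culture and medium the text names members among the 8 largest changes per direction, for interactions the 4 largest, and for partners and paralogues some of the 4 largest. TNFRSF19, SLC7A1, TSC22D1, NBEA and UBL3 were given by library for their interactions, and members and neighbours named in other comparisons were chosen after their values were seen.

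Results were recomputed with DESeq2 1.42.0 and with voom of limma 3.58.1, with RLE factors or library totals for scaling, without a low-count filter or with 1 CPM required in 3 libraries, with only the groups compared, with the replicate letter as a block, at an adjusted p under 0.01, and leaving out each library or the 3 that stand apart. Libraries with the same letter deviated together (every r over 0.1) for wt 3D and KOd 3D alone (r = 0.21, 0.218 and 0.342). A block in those groups was therefore added after seeing the data. Some results on single genes are not reported here.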

Additional observations from a re-analysis of the deposited data

Results flagged for a closer look

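For 16 interactions of pool and culture among the members the test of the difference itself passed, by edgeR's quasi-likelihood test with adjustment over all genes. The differences from wt behind them include those on which the interval was chosen, so these p-values are not independent of that choice. Values are the log2 fold change against wt in 3D minus that in 2D. In labelled KOs they were −6.493 for TNFRSF19 (adjusted p = 3.7e-10), −1.6532 for UBL3 (1.4e-06), −1.1553 for TPT1 (0.00048) and −0.8635 for POLR1D (0.00035). On the other side they were 1.4236 for SKA3 (0.00099), 1.3874 for CENPJ (0.0033), 1.1941 for BRCA2 (0.012) and 0.7461 for RCBTB1 (0.0059).

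In KOd they were −3.6009 for TNFRSF19 (1.7e-07), −1.7987 for SLC7A1 (1.5e-07), −1.5468 for TSC22D1 (6.4e-08) and −1.4919 for NBEA (5e-04), all members of the long run. Past the run they were 0.9011 for LPAR6 (0.034), 0.85 for RCBTB2 (0.026), 0.5512 for MED4 (0.014) and 0.416 for RB1 (0.012). The wt libraries are shared between the interactions of both pools, so the TNFRSF19 values are not independent of each other.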

How the results depend on the processing

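With library totals alone the median of all genes lay as high as 0.2397, for labelled KOs 3D against 2D, where TMM gave 0.0225. The members' changed medians with that scaling went with that shift: in KOd 3D their median relative to all genes was −1.0191, against −1.0125 with TMM. With library totals the members' median was −1.2848 in labelled KOs 3D, −0.2232 in KOd 2D, −0.8614 in KOd 3D and 1.1039 for KOd against labelled KOs in 2D. For labelled KOs 3D against 2D it was 0.1341, with 15 members lower, and for the labelled KOs interaction 0.1037, with 18 higher. The share of higher genes among all calls rose from 49.3% to 63.1% in labelled KOs 3D, 49.6% to 61.2% in KOd 2D, 48.5% to 70.1% in KOd 3D, 48.4% to 59.8% for KOd against labelled KOs in 2D, 50.6% to 65.5% for labelled KOs 3D against 2D and 48.5% to 69.5% for the labelled KOs interaction. With only the groups compared, the medium lowered 23 members and raised 10, and the KOd interaction was higher for 7. At an adjusted p under 0.01 the higher members were 3 for the medium, 4 for the labelled KOs interaction and 0 of the 4 for the KOd interaction by edgeR's test. Without the 3 libraries that stand apart, 10 members were higher in the medium, 20 lower in the labelled KOs interaction and 8 higher in the KOd interaction. In windows of 10 Mb from 30 Mb the medians were −1.5771 and −1.4499 in labelled KOs and −0.5749 in KOd 2D, against −1.7421, −1.6485 and −0.8969 in windows of 5 Mb, which hold fewer genes. For the other settings the cause was not tested.

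Leaving out 1 library at a time gave members' medians of −1.3851 to −1.2653 in labelled KOs 2D, −1.5186 to −1.4114 in labelled KOs 3D and −1.04 to −0.9465 in KOd 3D. For labelled KOs 3D against 2D they ran from −0.1521 to −0.0238, for the labelled KOs interaction from −0.2233 to 0.0137 and for the KOd interaction from −0.4607 to −0.3501. The counts ran from 7 to 19 lower and 2 to 9 higher for the medium, lowest without the second medium library, from 6 to 13 higher for the labelled KOs interaction, and from 2 to 6 higher for the KOd interaction. With a replicate block the members' median was −1.3215 in labelled KOs 2D, −1.0049 in KOd 3D and −0.3895 for the KOd interaction, and −0.9629 in KOd 3D with the block in wt 3D and KOd 3D alone. The block moved the calls over all genes from 5548 to 5590 in KOd 3D and from 8681 to 8608 in labelled KOs 2D, and among the members given by library it changed 1 call, that of FOXO1 in KOd 2D (−0.2636, gained). Of 4668 values of 150 gene results 4563 kept direction and call, 75 lost a call, 27 gained one, 3 moved with no call and 0 reversed a call. With library totals CENPJ in labelled KOs 3D (−0.5668), VWA8 (−0.2492) and CDK8 (−0.3091) in KOd 2D lost their calls. Levels under about 5 CPM, as for LPAR6, RCBTB2 and TNFRSF19 in 2D, rest on few reads.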
